A study of Homo sapiens with 12 samples.

Results

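The genes described here are 37 cyclins, cyclin-dependent kinases (CDKs), CDK inhibitors and their assembly partners other than P-TEFb. They were chosen by gene symbol, with earlier results of these data known. Each was found as a row of the deposited table of 58037 annotated genes. The experiment was RNA-seq of HCT116 cells, a human colorectal carcinoma cell line of epithelial type with wild-type genotype per the labels. The cells were exposed for 8 h to DMSO as the vehicle control, to 10 μM Nutlin-3a, to 20 nM NVP-2, or to Nutlin-3a (10 μM) and NVP-2 (20 nM) together, with 3 samples for each of the 4 conditions. Nutlin-3a keeps MDM2 from binding p53 and so stabilizes it. NVP-2 inhibits CDK9, which together with cyclin T forms P-TEFb.

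The count was the same in all 12 columns of the table for every gene, so that 0 of 58037 genes differed between any columns. The columns were therefore treated as 1 profile of 22720718 counts, and its treatment is not known. No treatment was compared with another, no spread between replicates could be computed, and no test was run. Intervals given below are 95% intervals that cover counting error alone. The labelled cell type was compared with marker genes. All 5 epithelial markers (*EPCAM*, *CDH1*, *KRT8*, *KRT18* and *KRT19*) had an RPKM (counts scaled to the length of the gene in kilobases and to the library total) of 10.7 or more. By contrast, 0 of 5 intestinal, 0 of 4 immune, 0 of 3 endothelial and 0 of 4 fibroblast markers reached an RPKM of 1. The intestinal markers *CDX1*, *VIL1*, *CDH17* and *LGALS4* had 0, 4, 3 and 4 counts, and *CDX2* had 65. The fibroblast marker *COL1A1* had 199 counts and an RPKM of 0.972, with an interval (0.842 to 1.12) that includes 1. With the length of its canonical transcript that RPKM was 1.48. For *CDX2* (RPKM 0.813, interval 0.628 to 1.04) and the immune marker *CD14* (0.722, interval 0.475 to 1.05) the intervals also include 1.

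CDKs are protein kinases that are in general activated by binding a cyclin. A first set drives the cell cycle. CDK4 and CDK6 with D-type cyclins phosphorylate the retinoblastoma protein in G1, CDK2 with cyclin E and then cyclin A acts at the start of and during S phase, and CDK1 with cyclins A and B drives mitosis. INK4 proteins bind CDK4 and CDK6, whereas CIP/KIP proteins bind cyclin-CDK complexes more widely. A further set acts on RNA polymerase II (Pol II). CDK7 with cyclin H and MAT1 is the kinase module of TFIIH, CDK12 and CDK13 pair with cyclin K during elongation, and CDK11 pairs with L-type cyclins. The protein activity of these kinases is not measured by RNA-seq.

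Levels between genes are compared as RPKM, which divides by gene length. Lengths are the summed merged exons of each gene in GENCODE v44, and the length of the canonical transcript is used beside it. Of the 37 genes 32 had an RPKM of 1 or more (86.5%), against 44.6% of 19629 protein-coding genes, and 15 had an RPKM of 10 or more, against 16.2%. The number with 1 or more was also 32 with the length of the canonical transcript (against 49.1%) and with that of protein-coding exons (against 47.4%). A CPM of 1 or more was reached by 35 (against 58.0%), and 2 had 0 counts (against 24.3%). As the members were chosen with earlier results of these data known, these shares describe the list and test nothing. The median RPKM of the 37 genes was 6.06, and that of all protein-coding genes 0.589. The 5 genes under an RPKM of 1 were *CDK14* (0.420), *CDKN2B* (0.396), *CDK13* (0.282), *CCND2* (0 counts) and *CCNA1* (0 counts). For *CDK17* and *CDKN2C*, with RPKM values of 1.03 and 1.17, the intervals (0.870 to 1.21 and 0.925 to 1.45) include 1. Altogether the 37 genes took 0.322% of the counts, and *CCND1* alone took 33.7% of their sum.

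**Figure D1:**
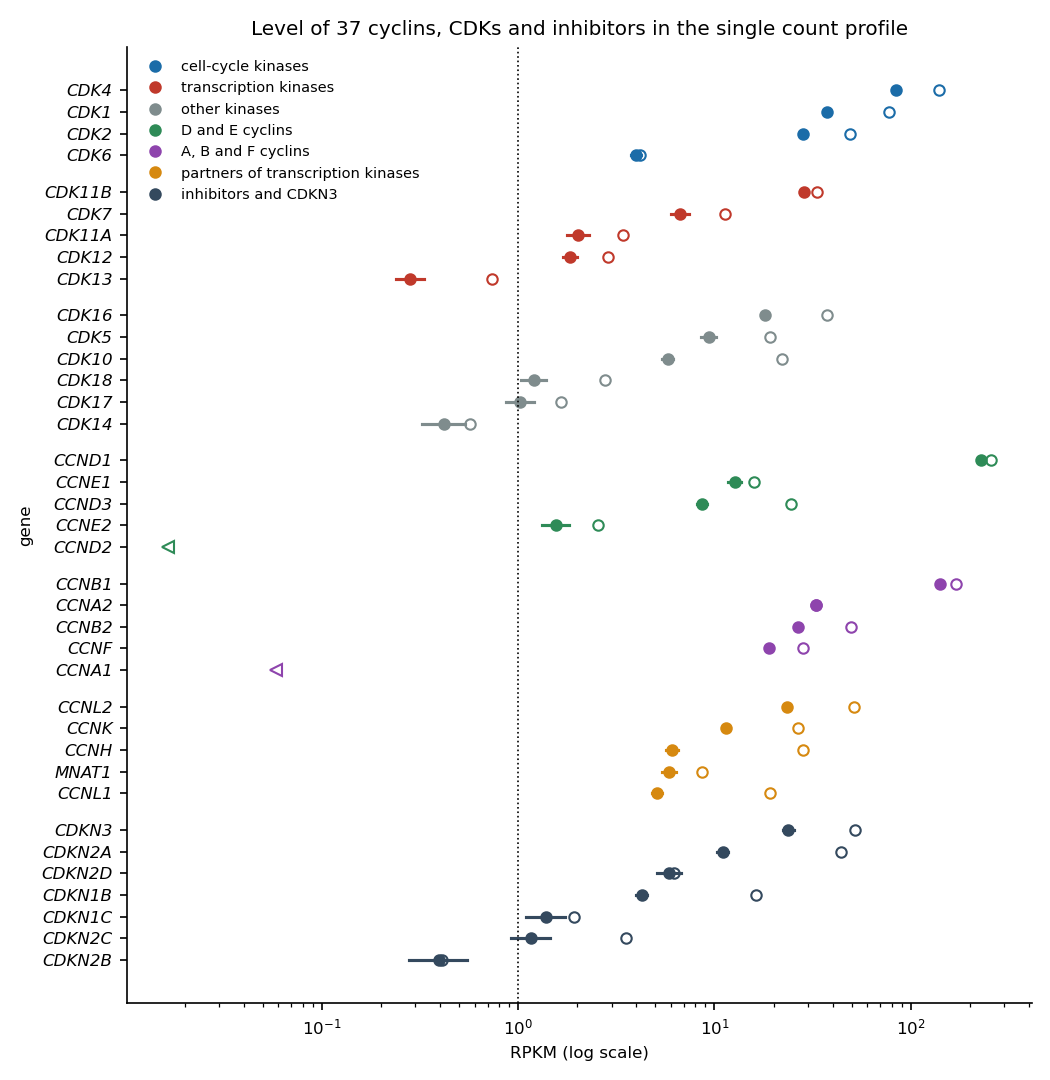
RPKM (log axis) of the 37 genes by role, with filled points for merged exon length and lines for the 95% Poisson interval of the count. Open circles show the RPKM with the canonical transcript length, left-pointing triangles show the floor of 3 counts for *CCND2* (0.0165) and *CCNA1* (0.0587), which had 0 counts, and the dotted line marks an RPKM of 1. *CCND1* (228) and *CCNB1* (141) lie farthest to the right.

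Ordered by RPKM with merged exons, the 10 highest genes were *CCND1*, *CCNB1*, *CDK4*, *CDK1*, *CCNA2*, *CDK11B*, *CDK2*, *CCNB2*, *CDKN3* and *CCNL2*. With canonical lengths the 4 highest were the same and in the same order, whereas *CCNA2* (32.8) and *CDK11B* (33.4) were not among the 10 highest and *CDKN2A* (43.9) and *CDK16* (37.5) were. Of the 34 pairs of neighbours in the order with merged exons in which both genes had counts, 16 were separated beyond counting error (the interval of their ratio did not include 1) and 18 were not. The first 5 steps of that order, from *CCND1* down to *CDK11B*, were all separated, although with canonical lengths *CDK11B* lay above *CCNA2*. By contrast, no 2 neighbours were separated in the run from *CDK7* (6.69) through *CCNH* (6.06), *MNAT1* (5.88) and *CDKN2D* (5.88) to *CDK10* (5.77). This run holds for merged exons alone. With canonical lengths the same genes had 11.3, 28.3, 8.61, 6.21 and 22.1. Likewise, with merged exons, the lower run from *CDK11A* (2.02) to *CDK17* (1.03) held no separated neighbours. The intervals of its ends, 1.77 to 2.29 and 0.870 to 1.21, do not overlap.

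**Figure D2:**
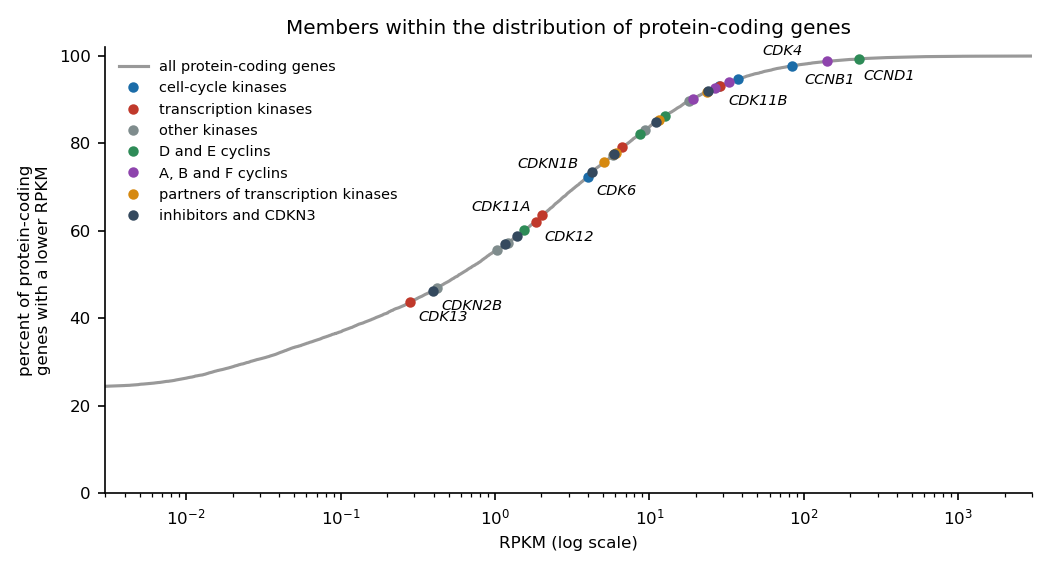
Cumulative distribution of RPKM (log axis) over 19629 protein-coding genes, as the percent of them with a lower RPKM, with the members that had counts as coloured points on the grey line. *CCND1*, *CCNB1* and *CDK4* lie above at least 97.7% of protein-coding genes, and *CDK13* at 43.7%.

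The D-type cyclins, which link growth signals to CDK4 and CDK6, were represented mainly by *CCND1*. *CCND1* (chromosome 11, 69641156 to 69654474, plus strand, hg38) had 24646 counts, 1085 CPM (counts scaled to the library total alone; 95% Wilson interval 1071 to 1098) and an RPKM of 228 (interval 225 to 231), higher than that of 99.3% of protein-coding genes. *CCND3* had 1135 counts and an RPKM of 8.67 (8.17 to 9.19). *CCND2* had 0 counts, and for every gene at 0 a floor of 3 counts (0.132 CPM) was taken as the limit that a count of 0 allows. Of the summed D-type RPKM, *CCND1* made up 96.3% and *CCND3* 3.67%. *CCND1* was 26.3 times (24.8 to 27.9) as high as *CCND3*, a ratio that fell to 10.4 with the canonical transcript lengths, because the merged exons of *CCND3* are 2.84 times as long as its canonical transcript. Against this floor for *CCND2*, an RPKM of 0.0165 with merged exons, the RPKM of *CCND1* was at least 13784-fold higher and that of *CCND3* at least 525-fold higher.

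Of the 2 kinases that D-type cyclins activate, *CDK4* was much the higher. *CDK4* (chromosome 12, 57747727 to 57756013, minus strand) had 5885 counts and an RPKM of 83.7 (81.6 to 85.9). *CDK6*, which spreads over chromosome 7 from 92604921 to 92836573 on the minus strand, had 1111 counts and an RPKM of 3.995 (3.76 to 4.24). The ratio of *CDK4* to *CDK6* was 20.95 (19.6 to 22.4), and 33.1 with the canonical transcript lengths. The cyclin exceeded its kinase, in that the RPKM of *CCND1* was 2.72 times (2.65 to 2.80) that of *CDK4*. With canonical lengths it was 1.84 times that of *CDK4*.

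The E-type cyclins and CDK2, which act at the entry into S phase, were lower than *CCND1* and *CDK4*. *CDK2* had 2509 counts and an RPKM of 28.4 (27.3 to 29.5). This was 2.24 times (2.06 to 2.44) that of *CCNE1*, or 3.08 times with canonical lengths. Among the kinases of the cell cycle *CDK4* was 2.95 times (2.81 to 3.09) and *CDK1* 1.32 times (1.25 to 1.39) as high as *CDK2*. With canonical lengths these ratios were 2.82 and 1.57. *CCNE1* (710 counts, RPKM 12.7, interval 11.8 to 13.7) was 8.18 times (6.87 to 9.80) as high as *CCNE2* (155 counts, RPKM 1.55, interval 1.32 to 1.82). With canonical lengths the ratio of *CCNE1* to *CCNE2* was 6.27. For the G1 pairs, then, a single member carried most of each family, with *CCNE1* making up 89.1% of the E-type RPKM and *CDK4* 95.4% of the *CDK4* and *CDK6* RPKM.

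Among the mitotic cyclins *CCNB1*, which activates CDK1, was highest. *CCNB1* (chromosome 5, 69167135 to 69178245, plus strand) had 7819 counts and an RPKM of 141 (138 to 145), 5.30 times (5.03 to 5.60) that of *CCNB2* (1668 counts, RPKM 26.7). With canonical lengths that ratio was 3.44. *CDK1* (chromosome 10, 60778331 to 60794852, plus strand) had 3324 counts and an RPKM of 37.4 (36.2 to 38.7), so that *CCNB1* exceeded its kinase by 3.78 times (3.63 to 3.94) with merged exons and 2.19 times with canonical lengths. *CCNA2*, the A-type cyclin of somatic cells, had 2051 counts and an RPKM of 32.8 (31.4 to 34.3). This was 2.59 times (2.37 to 2.82) that of *CCNE1*, or 2.05 times with canonical lengths. *CCNA1*, known mainly from the germ line, had 0 counts, and *CCNA2* was at least 560-fold higher than its floor of 3 counts with merged exons and at least 430-fold with canonical lengths. *CCNF*, whose product is the F-box protein of a ubiquitin ligase and is not known to activate a CDK, had 2726 counts and an RPKM of 19.0 (18.3 to 19.7). In RNA from a whole culture, the share of cells in a cell-cycle phase and the level of an mRNA per cell cannot be told apart.

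Promoter sequences are shown for *CDK1*, *CCNB1*, *CCNB2* and *CCNA2*, 4 mitotic and S-phase genes with RPKM values between 26.7 and 141. Such genes are known to be read through CCAAT boxes, bound by NF-Y, and CHR elements, bound by the MuvB complexes. That range also holds *CDK4* (83.7) and *CDK11B* (28.6), which are not shown, and *CDK2* (28.4), which had no matched promoter. The promoter of *CDK4* held no CCAAT box and no CHR letters, and that of *CDK11B* held a CCAAT box alone of these. The 250 bases before each RefSeq start (GRCh38.p14) are given 5′ to 3′, from the start of the canonical transcript, on the strand of the gene, in lower case with CCAAT boxes (CCAAT or ATTGG) and CHR elements (TTTGAA or TTCAAA) in capitals.
CDK1, chr10:60778228-60778477, plus strand: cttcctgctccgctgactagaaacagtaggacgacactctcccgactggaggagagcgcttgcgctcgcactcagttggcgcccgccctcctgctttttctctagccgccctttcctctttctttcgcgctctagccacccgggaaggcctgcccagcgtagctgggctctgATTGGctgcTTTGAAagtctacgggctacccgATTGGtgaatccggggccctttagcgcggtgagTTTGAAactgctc
CCNB1, chr5:69166900-69167149, plus strand: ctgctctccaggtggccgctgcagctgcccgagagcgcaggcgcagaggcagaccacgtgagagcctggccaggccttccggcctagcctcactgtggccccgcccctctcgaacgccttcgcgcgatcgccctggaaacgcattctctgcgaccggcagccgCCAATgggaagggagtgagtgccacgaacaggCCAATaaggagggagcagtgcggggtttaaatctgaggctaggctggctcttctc
CCNB2, chr15:59104896-59105145, plus strand: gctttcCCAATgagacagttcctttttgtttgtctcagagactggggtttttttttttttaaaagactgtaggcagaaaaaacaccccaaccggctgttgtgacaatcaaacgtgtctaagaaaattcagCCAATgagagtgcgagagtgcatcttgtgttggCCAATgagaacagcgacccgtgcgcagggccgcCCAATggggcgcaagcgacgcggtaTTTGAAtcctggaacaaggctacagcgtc
CCNA2, chr4:121823884-121824133, minus strand: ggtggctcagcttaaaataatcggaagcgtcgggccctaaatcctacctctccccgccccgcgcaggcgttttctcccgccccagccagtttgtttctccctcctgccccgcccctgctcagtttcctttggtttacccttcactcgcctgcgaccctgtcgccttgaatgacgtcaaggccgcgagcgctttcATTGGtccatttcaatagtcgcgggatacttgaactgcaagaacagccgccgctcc
*CDK1* held 2 CCAAT boxes, 46 and 78 bases before the start, and *CCNB1* held 2, at 55 and 87 bases. In both promoters the boxes are therefore spaced by 32 bases. *CCNB2* held 4, of which those at 54, 87 and 120 bases are spaced by 33 bases each, and *CCNA2* held 1 at 56 bases. The letters TTTGAA were found in *CDK1* at 13 and 69 bases and in *CCNB2* at 29 bases, and in neither of the other promoters shown. Only TTTGAA and its reverse complement were searched, and a CHR element with other letters would be missed. The absence of these letters therefore does not show that *CCNB1* or *CCNA2* lacks a CHR element. An E2F site was found in *CDK1* (TTTCGCGC, 128 bases before the start) and is left in lower case. A match is a description of letters and not a binding site.

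RefSeq promoters matched 32 of the 37 members, leaving out *CDK2*, *CCND1*, *CCND2*, *CCNE2* and *CDKN1C*. The promoter nearest to the canonical start was taken, which lay within 10 bases of it for 30 of the 32. For *CCNA1* the distance was 540 bases and for *CDK14* 113077. The full set of RefSeq promoters was not reduced in this way, so the sets compared below were formed by unlike rules. Of the 32, 14 held a CCAAT box (43.8%), against 32.0% of all 35116 RefSeq promoters of the same length. The CHR letters TTTGAA or TTCAAA were found in 4 (12.5% against 13.3%), namely *CDK1*, *CCNB2*, *CCNF* and *CDKN3*. A GC box (GGGCGG or CCGCCC) was found in 24 (75.0% against 42.6%) and a TATA box (TATAAA or TTTATA) in 0 (against 10.7%). An E2F site, searched on both strands as TTTCCCGC, TTTGGCGC, TTTCGCGC or TTTGCCGC, was found in *CDK1* and *CDK10* (6.25% against 2.79%). Some of these letters overlap, in that TTTCCCGC and TTTGCCGC can share bases with a GC box. The median number of CpG dinucleotides in these 250 bases was 20.5 for the members and 11 for all promoters.

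The kinases that act on Pol II spanned a wide range, from an RPKM of 28.6 for *CDK11B* down to 0.282 for *CDK13*. *CDK7*, with 367 counts, had an RPKM of 6.69 (6.02 to 7.41). Its partners *CCNH* (824 counts, cyclin H) and *MNAT1* (518 counts, MAT1) had RPKM values of 6.06 (5.66 to 6.49) and 5.88 (5.38 to 6.41). With merged exons, the 3 mRNAs of the CDK7 module were thus not separated by counting error, the ratio to *CDK7* being 0.907 (0.801 to 1.03) for *CCNH* and 0.880 (0.768 to 1.01) for *MNAT1*. This depended on gene length for both partners. The merged exons of *CCNH* are 4.67 times as long as its canonical transcript. With canonical lengths *CCNH* was 2.50 times (2.21 to 2.84) and *MNAT1* 0.760 times (0.664 to 0.871) as high as *CDK7*.

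*CDK12* and *CDK13*, homologous kinases of elongating Pol II, were among the lower members. *CDK12* (chromosome 17, 39461486 to 39567559, plus strand) had 541 counts and an RPKM of 1.84 (1.68 to 2.00). *CDK13* (chromosome 7, 39950121 to 40099580, plus strand) had 159 counts and an RPKM of 0.282 (0.240 to 0.330). The merged exons of *CDK13* come to 24780 bases and its canonical transcript to 9525, and with the latter the RPKM was 0.735. The ratio of *CDK12* to *CDK13* was 6.498 (5.44 to 7.80), or 3.91 with canonical lengths. Their shared partner *CCNK* had 2146 counts and an RPKM of 11.5 (11.01 to 11.99). This was 6.26 times (5.70 to 6.89) that of *CDK12*, or 9.33 times with canonical lengths.

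*CDK11A* and *CDK11B* are near-identical copies on chromosome 1 whose products act with cyclins L1 and L2 in transcription and splicing. *CDK11B* (1635225 to 1659012, minus strand) had 2268 counts, 99.8 CPM and an RPKM of 28.6 (27.4 to 29.8). *CDK11A* (1702379 to 1724357, minus strand) had 233 counts, 10.3 CPM and an RPKM of 2.02 (1.77 to 2.29). With merged exons *CDK11B* was thus 14.2 times (12.4 to 16.3) as high, and 9.71 times (8.48 to 11.2) with canonical lengths. How reads were divided between these copies is uncertain. Of the 75-base windows centred on exon positions of *CDK11A*, 53.2% occur at more than 1 place in hg38, and of those of *CDK11B* 56.1%, whereas at least 98.9% of the windows of each of the other 35 genes occur once. The same windows were found in both copies for 34.6% of the *CDK11A* positions and 50.5% of the *CDK11B* positions. In addition, 48.1% of the exon positions of *CDK11A* lie in exons of a lncRNA on the same strand (ENSG00000268575, 29 counts), and a read there can belong to either gene. With each count left as it is and the lengths restricted to unique positions free of that overlap, *CDK11B* was 8.50 times (7.43 to 9.77) as high as *CDK11A*. Summed as 1 gene, both copies had 2501 counts, of which 9.32% (exact interval 8.21% to 10.5%) were on *CDK11A*. Divided by the mean of both merged lengths, this sum gave an RPKM of 25.7, or 36.8 with the mean of both canonical lengths. The value of 25.7 lies below the 28.6 of *CDK11B* alone because the merged exons of *CDK11A* are longer (5085 against 3490 bases).

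Exons of both copies are shown because they set which reads can be told apart. Of 19 coding exons in each canonical transcript, 18 have equal lengths, and these differ at 24 of 2207 bases (98.9% identity). In 8 of the 18 exons the copies are identical. Exon 18, with 5 differences in 149 bases, differs at more bases than any other of these 18, and is printed 5′ to 3′ on the minus strand of hg38 with the differing bases in capitals.
CDK11B, exon 18, chr1:1636333-1636481: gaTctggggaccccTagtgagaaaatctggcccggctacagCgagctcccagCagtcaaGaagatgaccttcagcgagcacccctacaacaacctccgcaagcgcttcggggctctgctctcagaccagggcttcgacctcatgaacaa
CDK11A, exon 18, chr1:1703476-1703624: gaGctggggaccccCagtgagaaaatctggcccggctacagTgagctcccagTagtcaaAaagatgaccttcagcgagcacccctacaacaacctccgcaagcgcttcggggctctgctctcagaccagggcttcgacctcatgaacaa
Counted from 1 at the 5′ end of the exon, with the base of *CDK11B* first, the differences are T3G, T15C, C42T, C53T and G60A. They all lie within the first 60 bases. Exon 19, the longest identical one, reads the same 190 bases in *CDK11B* (chr1:1635937-1636126) and *CDK11A* (chr1:1703080-1703269), so that no 75-base read inside it tells the copies apart.
CDK11B and CDK11A, exon 19: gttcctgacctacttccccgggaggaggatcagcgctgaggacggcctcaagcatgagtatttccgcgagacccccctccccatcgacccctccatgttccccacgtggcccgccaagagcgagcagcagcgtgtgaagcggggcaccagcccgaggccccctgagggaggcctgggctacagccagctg

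**Figure D3:**
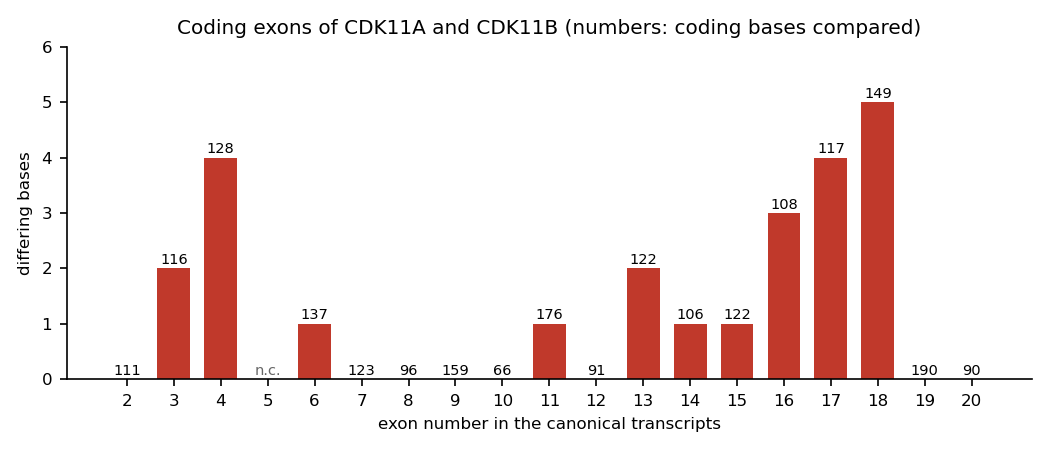
Number of differing bases (bars) between *CDK11A* and *CDK11B* in each coding exon of the canonical transcripts, with the number of bases compared above each bar and n.c. for exon 5, whose lengths differ. The 8 exons without a bar are identical, and exon 18 has 5 differences.

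The L-type cyclins, partners of CDK11, were both well above an RPKM of 1. *CCNL2* had 3644 counts and an RPKM of 23.4 (22.7 to 24.2), and *CCNL1* 1012 counts and an RPKM of 5.10 (4.79 to 5.43). *CCNL2* was 4.59 times (4.28 to 4.93) as high, or 2.69 times with canonical lengths, and made up 82.1% of the summed RPKM of this pair.

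Of the other kinases, *CDK16* was highest and *CDK14* lowest. *CDK16* and its relatives *CDK17* and *CDK18* are the PCTAIRE kinases, and *CDK14* is a relative that pairs with cyclin Y. *CDK16* had 2684 counts and an RPKM of 18.1 (17.4 to 18.8), making up 89.0% of the PCTAIRE total. *CDK17*, with 151 counts, had an RPKM of 1.03, and *CDK18*, with 187 counts, 1.21 (1.04 to 1.39). *CDK16* was 17.6 times (14.9 to 20.9) as high as *CDK17*, or 22.8 times with canonical lengths. The ratio of *CDK17* to *CDK18* was 0.853 (0.684 to 1.06), which does not separate them, whereas it was 0.597 (0.479 to 0.744) with canonical lengths. *CDK14* had 67 counts and an RPKM of 0.420 (0.326 to 0.534), and *CDK16* was 43.0 times (33.8 to 55.7) as high, or 65.7 times with canonical lengths. *CDK5*, known for its role in neurons with the activator p35, had 490 counts and an RPKM of 9.37 (8.56 to 10.2). *CDK10*, which pairs with cyclin M, had 889 counts and an RPKM of 5.77 (5.40 to 6.16). The order of *CDK5* and *CDK10* depended on length, with a ratio of 1.62 (1.45 to 1.81) for merged exons and 0.868 (0.776 to 0.970) for canonical transcripts.

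Of the genes of CDK inhibitors, with *CDKN3*, 6 of 7 had an RPKM of 1 or more, against 44.6% of protein-coding genes. The exception was *CDKN2B*. Of the INK4 genes, *CDKN2A* (chromosome 9, 21967752 to 21995301, minus strand) had 975 counts and an RPKM of 11.0 (10.4 to 11.8). *CDKN2B* (p15), which lies next to it at 22002903 to 22009305, had 36 counts and an RPKM of 0.396 (0.277 to 0.548), so that *CDKN2A* was 27.9 times (20.0 to 40.1) as high, and 107 times with canonical lengths. *CDKN2A* encodes p16 and, from another first exon and reading frame, ARF, and counts per gene do not tell these transcripts apart. *CDKN2D* (p19) had 201 counts and an RPKM of 5.88 (5.09 to 6.75), and *CDKN2C* (p18) 80 counts and an RPKM of 1.17. Their ratio, *CDKN2C* to *CDKN2D*, was 0.198 (0.151 to 0.258), or 0.570 (0.434 to 0.742) with canonical lengths. Within the INK4 family *CDKN2A* made up 59.7% of the RPKM, or 81.2% with canonical lengths.

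Of the CIP/KIP genes, *CDKN1B* (p27) had 896 counts and an RPKM of 4.26 (3.99 to 4.55). *CDKN1C* (p57) had 78 counts and an RPKM of 1.38 (1.09 to 1.73). *CDKN1B* was 3.08 times (2.44 to 3.93) as high as *CDKN1C*, and 8.45 times with canonical lengths. *CDKN1A* (p21), which is no member and was picked out here after its value was seen, had 10839 counts and an RPKM of 159 (156 to 162). *CDKN3*, a phosphatase that removes the activating phosphate of CDKs and is named with the inhibitors, had 990 counts and an RPKM of 23.8 (22.4 to 25.4), the highest of the 7 genes of this group.

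Across the 26 pairs of members compared, the interval of the ratio lay above or below 1 for 23 with merged exons, and for 22 of them it lay on the same side with each of the 4 gene lengths. The pairs not separated with merged exons were *CCNH* and *CDK7*, *MNAT1* and *CDK7*, and *CDK17* and *CDK18*. Among the 26 pairs, 3 involve *CCND2* or *CCNA1*, with 0 counts, and are given as bounds.

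**Figure D4:**
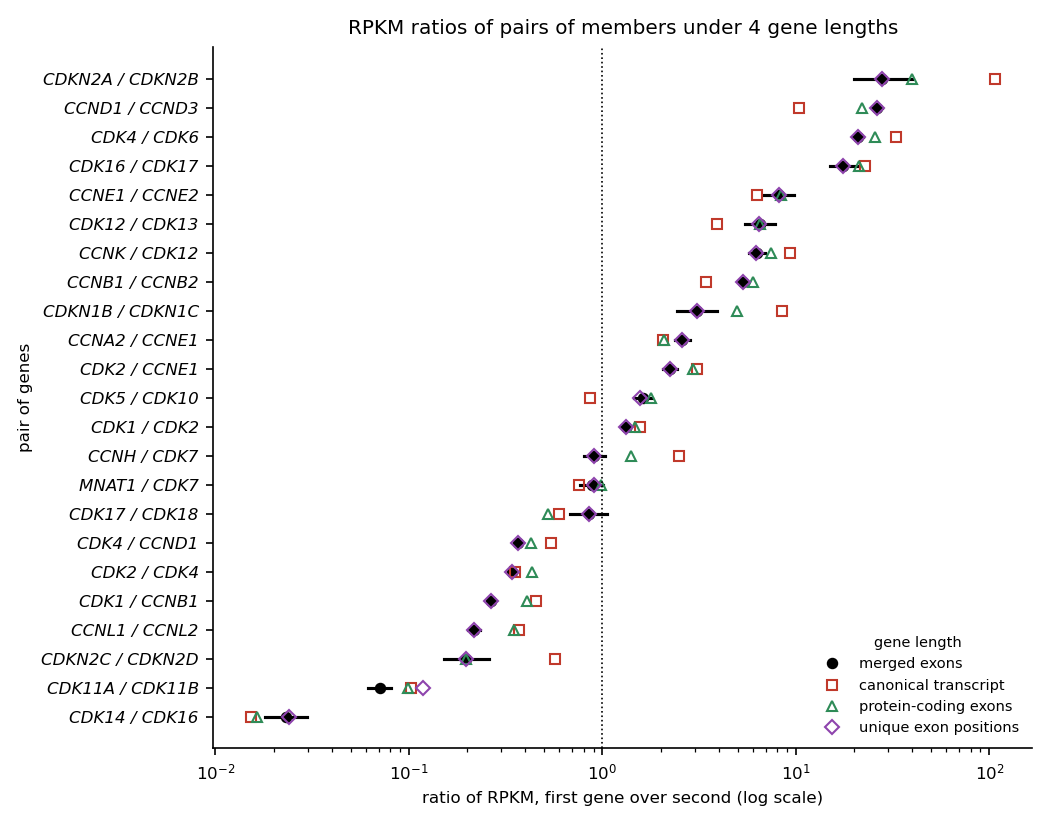
Ratio of RPKM (log axis) for the 23 pairs in which both genes had counts, first gene over second. Black points and lines give the ratio with merged exons and its 95% interval, open symbols the ratio with the canonical transcript, the protein-coding exons and the unique exon positions, and the dotted line equal levels. *CDK5* over *CDK10* is 1.62 with merged exons and 0.868 with the canonical transcript, on opposite sides of that line.

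Other genes of the pathway were read from lists, to be set beside the 44.6% of protein-coding genes with an RPKM of 1 or more. Of 11 further CDKs and CDK-like kinases, 2 had an RPKM of 1 or more, and *CDK9* was highest (29.8) and *CDK15* lowest (0 counts). Of 15 further cyclins 11 did, from *CCNJL* (0.0429) to *CCNG1* (41.0). Among 17 regulators, such as CDC25 phosphatases, CKS proteins and pocket proteins, 15 did, from *CDK5R2* (0.0177), an activator of CDK5, to *CDC20* (225), the activator of the anaphase-promoting complex. All 15 E2F factors and replication genes did, from *E2F5* (1.20) to *PCNA* (211), the sliding clamp of DNA polymerases.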

How the data were processed

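PolyA-selected, strand-specific libraries of HCT116 cells were sequenced as single-end 75-base reads. Per the methods of the authors, reads were aligned to hg38 and to ribosomal RNA by BWA inside ContextMap (version 2.7.9) and counted per gene, by strand, by featureCounts with Gencode version 25. The deposited values are raw counts, without normalization. Options for reads that map to several places or overlap several genes are not given in the sources used here. The members and lists were chosen with earlier results of these data known.

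Each of the 12 columns was matched by name to its sample. As all columns were identical, they were counted as 1 profile of 22720718 counts, and the edgeR contrasts planned for differing columns were not run. Identifiers were matched without suffix to GENCODE v44 (56948 of 58037, with 99.8% of counts), and 45 rows of the Y copies of pseudoautosomal genes entered the total alone. CPM and RPKM were computed from the total of the column. Exons added to GENCODE after version 25 lengthen the v44 merged exons without adding counts, which lowers RPKM, and other lengths were therefore tried. Intervals are Wilson for CPM, exact Poisson for RPKM and Clopper-Pearson, conditional on the pair total, for ratios, all at 95% (Python 3.11.15, scipy 1.17.1), and cover counting error alone. The depth gives a floor of 3 counts, or 0.132 CPM. Window uniqueness was judged from exact matches of 75-base windows in either orientation in hg38 (numba 0.67.0). The column comparison, the ratio intervals and the window search were tested on simulated data. All 37 members are named. Other genes are named as the highest and lowest of each list, apart from the markers, the lncRNA over *CDK11A* and *CDKN1A*. Values per exon or isoform were not analysed here.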

Additional observations from a re-analysis of the deposited data

How the results depend on the processing

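No paired analysis was possible because, gene by gene, the 12 columns do not differ. Leaving out a replicate, DESeq2, other filters and a replicate block were not run for that reason. The number of members with an RPKM of 1 or more was 32 with each of the 4 gene lengths and with totals of nuclear or of protein-coding genes (against 45.8% and 45.7% of protein-coding genes), and 35 with a CPM of 1 or more. RPKM values moved by more than 1.5 times for 23 of the 35 members with counts when the canonical transcript gave the length (up to 4.67 times, *CCNH*), for 13 with protein-coding exons (up to 2.82 times, *CCNL1*) and for 2 with unique exon positions (up to 3.798 times, *CDK11A*, and also *CDK11B*). Nuclear and protein-coding totals raised every RPKM by the same factor, 1.12 and 1.10. The pairs separated by counting error numbered 23 with merged exons, 26 with canonical transcripts, 25 with protein-coding exons and 23 with unique positions. The ratio of *CDK5* to *CDK10* turned from 1.62 to 0.868 with canonical transcripts, which follows from the merged exons of *CDK10* being 3.84 times as long as its canonical transcript and those of *CDK5* 2.05 times. Summing both *CDK11* copies, chosen after the data were seen, gave an RPKM of 25.7 with the mean merged length and 36.8 with the mean canonical length. At this depth *CCND2* and *CCNA1*, with 0 counts, are given as bounds. In the order with merged exons, 18 of 34 neighbours were not separated by counting error.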
